A study of Micropterus salmoides with 68 samples.

Results

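Genes for translation initiation and elongation factors were followed through a road transport and the days after it in 2 organs, liver and spleen, of a fish raised for food, the largemouth bass (Micropterus salmoides). They were taken as every row of the expression table whose gene name starts with eif or eef followed by a digit. This gave 58 of 18666 genes, of which 48 are initiation (eif) genes and 10 are elongation (eef) genes. All 58 passed the filter on low values in both tissues. No row of the table carries the name of an eEF1A gene under this rule, so eEF1A is not analysed here.

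Translation begins when eIF2 brings the initiator tRNA to the small ribosomal subunit and the eIF4 factors bind the capped end of the messenger RNA. eIF3 holds the small subunit in place during scanning, and eIF1, eIF1A and eIF5 set the start site. eIF2B recharges eIF2, and kinases of eIF2 slow this step under stress. In elongation, the eEF1 exchange complex recharges the factor that delivers tRNA, and eEF2 moves the ribosome along until its kinase, eEF2K, phosphorylates it. Cells lower these activities when nutrients or energy run short. Most of this control acts on the proteins, which were not measured here.

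The 68 libraries were made from total RNA after removal of ribosomal RNA, 34 from liver and 34 from spleen, with tissues collected individually from fingerlings. Fish were sampled straight from the pond before transport, at the end of 4 h of transport by car in aerated boxes of 30 L water with 125 fish each, and after 1, 3, 4 and 5 days of recovery in indoor aquaria. On days 3, 4 and 5 the submitters sampled fish labelled normal and fish labelled abnormal separately, and the labels do not say how the labels were given. Each of the 9 conditions in each tissue had 4 libraries, except the labelled groups of day 3, which had 3 each. All fish came from 1 breeding farm, and no genotype or drug treatment was applied. No fish were fed during the experiment and no group was held without transport, so transport, fasting, the change of tank and time cannot be told apart. Values are the deposited transcript abundances in TPM, which are scaled to length and to the total of each library. Differences are on the log2(TPM + 1) scale, given with their standard error (SE). This scale understates changes of low genes. A gene was called at an adjusted p under 0.05 in a limma fit of all genes of the tissue.

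The summed TPM of 14 hepatocyte markers was 139277 to 164396 in the livers before transport and 294 to 684 in the spleens before transport. No marker found in the table was at 0 in every library of a tissue. Some libraries stood apart. Liver fish 4 before transport had a median correlation with its group of 0.828, and a summed TPM of 6 stromal markers of 1554 against 114 to 311 in the other 3. Liver fish 3 at day 1 had a median correlation of 0.875, and the 4 spleens at day 1 had 0.788 to 0.831 among themselves. Rescaling the libraries by the median of ratios moved the median difference of all genes from -0.51 to 0.01 between labels in spleen, from -0.35 to 0.00 for abnormal spleens against before transport and from -1.12 to -0.14 between liver and spleen. In the other comparisons within a tissue it moved from between -0.27 and 0.20 to between -0.05 and 0.03. Calls are therefore described below by whether they held in the same direction under both scalings. Salmon assigns reads among near-identical copies by estimate, so values of paralogue pairs (eif3ea and eif3eb, eef1da and eef1db, eif4ea, eif4eb and eif4e1c) carry an uncertainty that TPM does not show.

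The most abundant members came from both families. In liver, eef1g, the gamma subunit of the eEF1 exchange complex, averaged 1091 ± 182 TPM (SD over 34 libraries), eef1da, its delta subunit, 688 ± 236 TPM, and eif1, which guards start codon choice, 526 ± 169 TPM. In spleen, eif1 averaged 1064 ± 1169 TPM, eef1g 930 TPM and eef1da 578 TPM. In 1 spleen of day 1 eif1 stood at 7617 TPM, which the SD of eif1 includes.

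The summed level of each family was read by label. The 48 initiation genes summed to 3765 ± 839 TPM in liver before transport. In livers labelled normal they summed to 2852 ± 185, 3221 ± 576 and 3104 ± 231 TPM on days 3, 4 and 5, against 3851 ± 653, 5128 ± 357 and 5146 ± 420 TPM in livers labelled abnormal. The abnormal livers thus held the higher sums on each day, and the libraries of the labels did not overlap on any of the 3 days, as deposited or after rescaling. In spleen the order depended on the scaling. As deposited, spleens labelled normal summed to 6069 ± 299, 6541 ± 381 and 6121 ± 160 TPM, and spleens labelled abnormal to 3722 ± 273, 4300 ± 1145 and 4836 ± 671 TPM. After rescaling the order turned, with 4645 ± 454, 5282 ± 443 and 4907 ± 321 rescaled TPM in normal spleens and 4876 ± 42.2, 5677 ± 1208 and 5366 ± 562 rescaled TPM in abnormal spleens, and the libraries overlapped on all 3 days. The 10 elongation genes had higher sums in abnormal livers on each day, though after rescaling the libraries overlapped on days 4 and 5. They summed to 1602 ± 86, 1832 ± 309 and 1895 ± 199 TPM in normal livers and 2450 ± 189, 2727 ± 225 and 2838 ± 99 TPM in abnormal livers. In spleen they summed to 2093 ± 234, 2450.5 ± 93.0 and 2355 ± 196 TPM in normal fish and 1507 ± 59.9, 1860.2 ± 572 and 1908 ± 429 TPM in abnormal fish, overlapping on days 4 and 5, and after rescaling the means were higher in abnormal fish on all 3 days. These sums are a description with no test, and they follow the few most abundant genes.

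**Figure D1:**
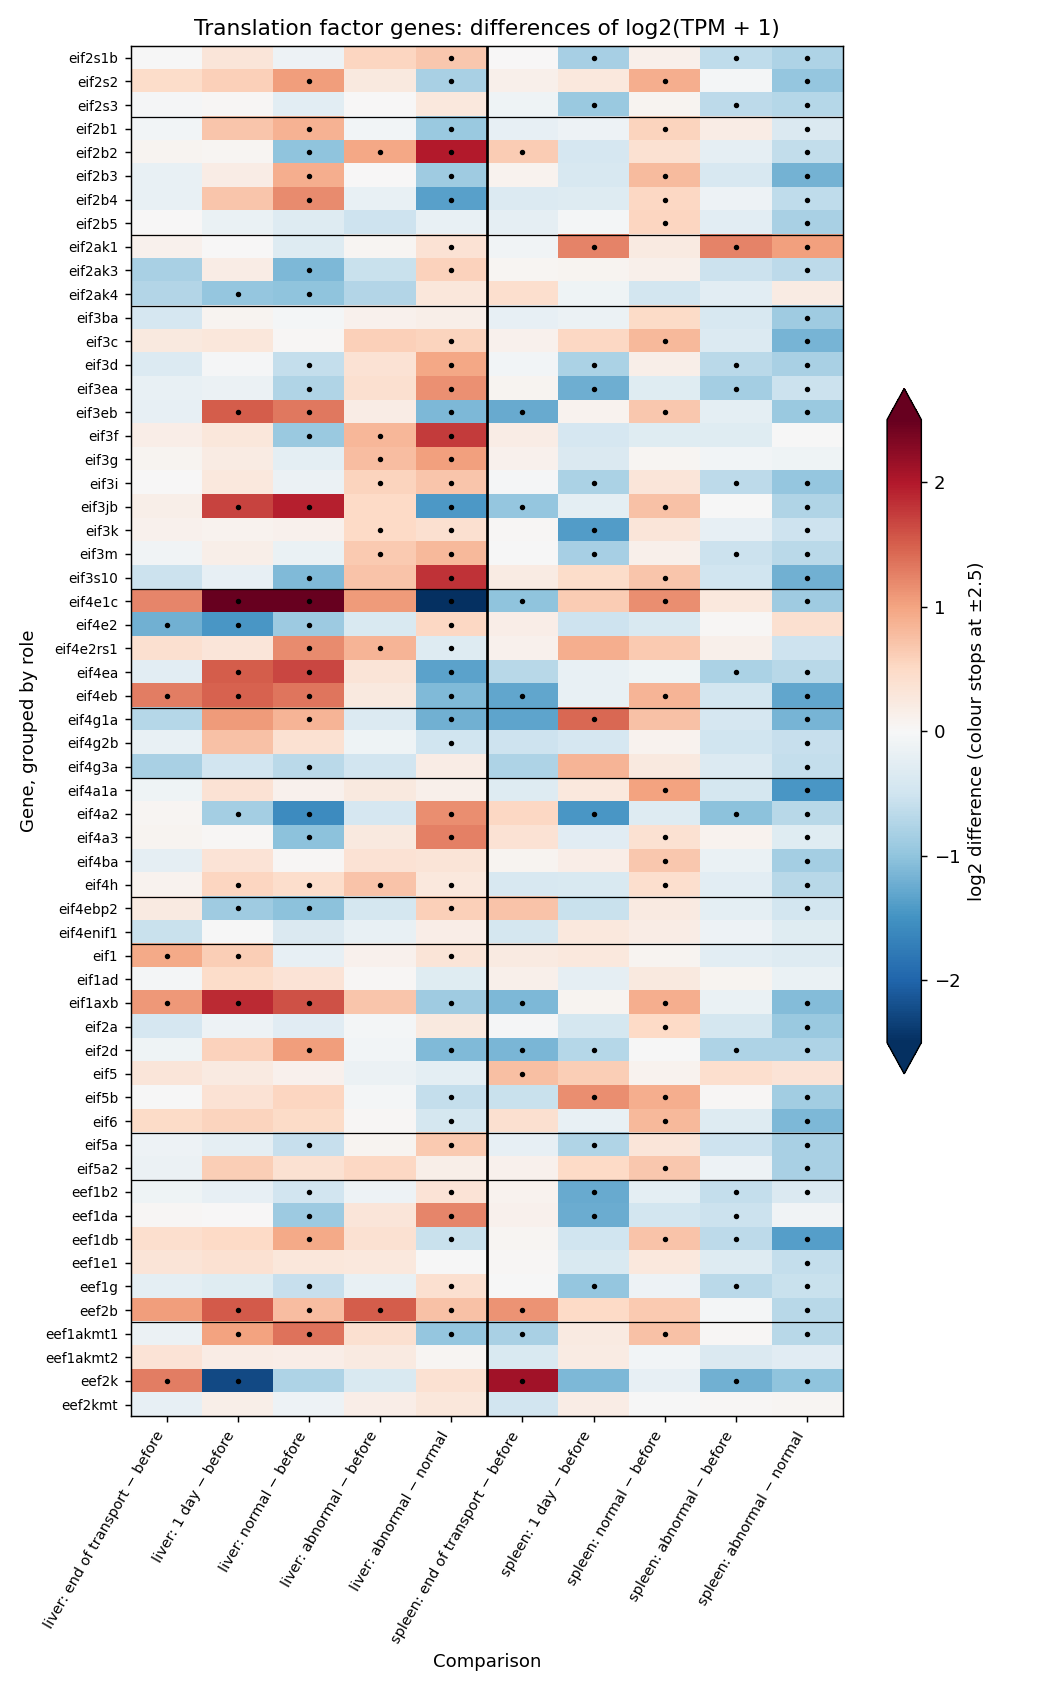
Differences of log2(TPM + 1) of the 58 genes (rows, grouped by role and separated by lines) in 5 comparisons of liver and 5 of spleen (columns), with colour from -2.5 to 2.5 and a dot where limma's adjusted p was under 0.05. The column of abnormal against normal fish holds 24 higher and 18 lower calls in liver and 1 higher and 45 lower calls in spleen.

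As deposited, the end of transport gave the fewest called members among the comparisons within each tissue. In liver 5 of 58 were called, 4 higher and 1 lower, where 12.2% of all genes were called (2.96% higher and 9.27% lower). In spleen 11 were called, 4 higher and 7 lower, where 12.2% of all genes were called (5.23% higher and 6.98% lower). The 5 liver calls and the 11 spleen calls also held after rescaling, which called 12 members in liver (11 higher and 1 lower) and 18 in spleen (7 higher and 11 lower). Of all genes called after rescaling, 54.4% were higher in liver and 46.3% in spleen. For this and the comparisons below, the share of all genes called after rescaling is not given, only its split by direction. Leaving out 1 library gave 3 in liver without fish 3 before transport or fish 2, 3 or 4 at the end. In spleen it gave 6 or 7 without fish 1, 2 or 4 before transport or fish 1, 2 or 3 at the end. In the same spleens the 14 hepatocyte markers summed to 1179 to 6457 TPM against 294 to 684 TPM before transport, and 12 of the 14 were called higher. Without the 1051 genes at least 10 times higher in liver, 10 of the 11 spleen calls remained and eif4e1c missed the threshold (limma adjusted p = 0.0552). The 4 neutrophil markers summed to 336 to 735 TPM in these spleens against 69.8 to 122 TPM before transport, with 2 called higher, and 2 of 6 stromal markers were called lower. Their part in the result was not tested.

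After 1 day of recovery, 15 members were called in liver, 10 higher and 5 lower, where 27.3% of all genes were called (9.99% higher and 17.3% lower). In spleen 16 were called, 3 higher and 13 lower, where 20.1% of all genes were called (4.17% higher and 15.9% lower). In liver the members' share called was near that of all genes, but most member calls were higher and most calls of all genes lower. In spleen the members' share was somewhat above that of all genes. These shares were not tested against each other. After rescaling, 14 of the liver calls and 16 of the spleen calls held, among 28 calls in liver (24 higher and 4 lower) and 28 in spleen (14 higher and 14 lower). Of all genes called after rescaling, 51.9% were higher in liver and 47.4% in spleen. Without day 1 spleens 3 and 4, left out after their values were seen, 8 were called in spleen, 1 higher and 7 lower, and without day 1 spleen 3 alone 10 were called. With only the groups compared, limma called 2 in liver and 0 in spleen. In that fit of spleen 2 higher and 11 lower had an unadjusted p under 0.05. All 7 red cell markers were also called higher in these spleens, with sums of 1727 to 9102 TPM against 430 to 771 TPM before transport. There 3 of 4 neutrophil markers were called higher (677 to 1686 TPM against 69.8 to 122 TPM), 5 of 6 stromal markers lower (279 to 1164 TPM against 999 to 1492 TPM) and 3 of 5 proliferation markers lower. In livers of day 1, 6 of 14 hepatocyte markers were called lower (84093 to 151384 TPM against 139277 to 164396 TPM) and 4 of 5 stromal markers tested lower (46.4 to 129.7 TPM against 114 to 1554 TPM). In the same livers 3 of 4 pancreatic acinar markers were called higher (271 to 691 TPM against 8.88 to 130.1 TPM) and 3 of 5 proliferation markers lower (0.77 to 3.86 TPM against 4.03 to 22.4 TPM). The part of these markers in the results was not tested. In bulk tissue, fewer cells of a type and less RNA per cell cannot be told apart.

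Fish labelled normal and abnormal on days 3 to 5 were compared as the mean of the 3 days, each day weighted equally. Between normal livers and livers before transport 33 members were called, 17 higher and 16 lower, where 51.6% of all genes were called (16.9% higher and 34.7% lower). Rescaling called 34, with 26 higher and 8 lower, where 51.1% of all genes called were higher. Of the 33, 25 held, 17 higher and 8 lower, while 8 lower calls were lost and 9 higher calls gained. Between abnormal livers and livers before transport 9 were called, all higher, where 9.28% of all genes were called (2.62% higher and 6.66% lower). As deposited no member was called lower there by limma, and 3 had an unadjusted p under 0.05 in that direction. Rescaling called 19, with 18 higher and 1 lower, where 47.4% of all genes called were higher. The 9 calls held. Without liver fish 4 before transport the count as deposited was 15. Between the labels 42 members were called in liver, 24 higher and 18 lower in abnormal fish, where 50.4% of all genes were called (29.1% higher and 21.3% lower). Each of the 42 differed in the same direction on all 3 days. They were called on the mean of these same days, so this is not separate support. Of the 42, 37 held after rescaling, 19 higher and 18 lower. In total rescaling called 40, with 19 higher and 21 lower, where 49.6% of all genes called were higher.

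In spleen, 22 members were called between normal fish and fish before transport, all higher, where 32.1% of all genes were called (21.5% higher and 10.6% lower). No member was called lower there by limma, and 1 had an unadjusted p under 0.05 in that direction. Rescaling called 22, with 17 higher and 5 lower, where 49.3% of all genes called were higher. Of the higher calls 16 were the same genes. The count was 11 without spleen fish 3 and 13 without spleen fish 2 before transport. Between abnormal spleens and spleens before transport 15 were called, 1 higher and 14 lower, where 28.6% of all genes were called (3.41% higher and 25.2% lower). Rescaling called 13, with 10 higher and 3 lower, where 43.6% of all genes called were higher, and 4 members were called in the same direction under both scalings. The 15 fell to 7, 9 and 5 without spleen fish 1, 3 and 4 before transport. Between the labels 46 were called, 1 higher and 45 lower, where 61.9% of all genes were called (7.75% higher and 54.2% lower). Of these, 17 held in direction after rescaling, among 25 calls, 9 higher and 16 lower, where 49.4% of all genes called were higher. Comparisons with fish before transport share those 4 control livers or spleens, so their counts are not independent of each other.

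Cell type markers moved with the labels as well. In liver the hepatocyte markers summed to 59433 to 99835 TPM in normal fish and 107454 to 171845 TPM in abnormal fish, with 12 of 14 called higher and 2 lower in abnormal fish. The 7 red cell markers summed to 16.2 to 45.3 TPM and 103 to 339 TPM, with all 7 called higher in abnormal fish. Of the other lists in liver, 3 of 5 stromal markers (8.75 to 22.7 TPM in normal and 72.4 to 175 TPM in abnormal fish), 5 of 6 thrombocyte markers (5.97 to 18.3 TPM and 9.54 to 24.8 TPM) and 3 of 4 pancreatic acinar markers (35.0 to 774 TPM and 348 to 3482 TPM) were called higher in abnormal fish. Lower there were 4 of 5 proliferation markers (4.04 to 11.6 TPM and 0.75 to 5.92 TPM) and 2 of 4 neutrophil markers. Of 3 lymphocyte markers tested in liver 2 were called higher, and of 4 in spleen 2 were called higher and 2 lower. In spleen the 7 red cell markers, all called higher, summed to 76.8 to 610.0 TPM in normal fish and 750.2 to 2378 TPM in abnormal fish, the 14 hepatocyte markers to 2234 to 5710.2 TPM and 164 to 3731 TPM, and the 5 proliferation markers, all called lower, to 109 to 275 TPM and 6.64 to 102 TPM. Of the hepatocyte markers 1 was called lower in abnormal spleens. All 4 neutrophil markers were called lower in abnormal spleens (604 to 1825 TPM in normal and 96.7 to 856 TPM in abnormal fish), 5 of 6 stromal markers higher (71.9 to 193 TPM and 129 to 619.7 TPM), and 4 of 6 thrombocyte markers higher and 1 lower (166 to 358 TPM and 551 to 1431 TPM). Their part in the differences between labels was not tested.

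Among the 58 genes the largest differences within a tissue were those of a cap-binding protein gene in liver. eif4e1c, a form of eIF4E known from fish, was near the floor in liver before transport, at 0.92, 1.20, 1.56 and 0.81 TPM. At the end of transport it stood at 9.19, 3.98, 1.34 and 3.78 TPM, and after 1 day at 11.4, 47.7, 132 and 12.6 TPM. All 4 livers of day 1 were above every liver before transport, and the difference was 3.94 ± 0.56 SE, adjusted p = 4.27e-05. Normal livers of days 3 to 5 held 17.2 to 75.8 TPM (median 30.3) over 11 libraries, and abnormal livers 0.92 to 8.05 TPM (median 3.49) over 11 libraries. The 2 labels did not overlap, with -2.91 ± 0.34 SE, adjusted p = 3.76e-08 for abnormal against normal. In spleen eif4e1c was 16.6, 12.9, 9.18 and 12.7 TPM before transport, 19.4 to 43.5 TPM (median 30.4) in normal fish and 7.20 to 34.9 TPM (median 15.3) in abnormal fish. These ranges overlapped between the labels, and the difference of -0.88 as deposited became -0.25 after rescaling, where it was not called (limma adjusted p = 0.266).

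eif4ea and eif4eb, the paralogues of the common cap-binding protein, were also higher in liver after 1 day than before transport. Both were lower in abnormal than in normal livers. At the end of transport eif4ea had not risen in liver, at 2.48, 1.64, 2.40 and 2.00 TPM. eif4ea was 3.28, 4.10, 2.93 and 1.29 TPM before transport and 6.51, 9.72, 22.7 and 6.04 TPM after 1 day, with every library of day 1 higher (1.52 ± 0.34 SE, adjusted p = 0.00187). Without liver fish 4 before transport and liver fish 3 of day 1 together this was 0.91 and not called (limma adjusted p = 0.0529). It was 5.98 to 18.9 TPM (median 11.2) in normal and 1.55 to 8.52 TPM (median 4.24) in abnormal livers, a difference of -1.34 ± 0.21 SE, adjusted p = 3.08e-06. eif4eb had already risen at the end of transport, from 15.1, 9.98, 16.7 and 17.9 TPM to 39.5, 37.0, 35.0 and 36.3 TPM. The groups did not overlap (1.28 ± 0.29 SE, adjusted p = 0.00447). In spleen the same gene fell over these 4 h, from 19.4, 21.2, 15.0 and 13.4 TPM to 5.31, 7.29, 5.85 and 6.80 TPM, again without overlap (-1.30 ± 0.29 SE, adjusted p = 0.00375). The rise in liver and the fall in spleen differed from each other in 1 fit of both tissues (2.59 ± 0.41 SE, adjusted p = 2.17e-05). Between labels eif4eb was lower in abnormal fish of both tissues, at -1.10 in liver and -1.30 in spleen, and at -1.24 and -0.68 after rescaling.

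eif4e2, which binds the cap but in mammals does not recruit the eIF4G scaffold, went the other way. In liver it was 10, 8.17, 9.98 and 12.1 TPM before transport, 5.19, 2.75, 5.26 and 2.61 TPM at the end of transport and 3.20, 4.63, 1.33 and 3.72 TPM after 1 day. Every library of the later groups was below every library before transport, and the differences were -1.20 ± 0.25 SE, adjusted p = 0.00212 and -1.45 ± 0.25 SE, adjusted p = 0.000194. It was higher in abnormal than in normal livers (0.52 ± 0.15 SE, adjusted p = 0.00453), with overlap. In spleen eif4e2 was not called in the comparisons with fish before transport. Between labels in spleen it was 0.39 as deposited and not called, and 1.02 after rescaling and called (limma adjusted p = 4.4e-07). eif4e2rs1, named as a related sequence of eif4e2, was higher in both labels than before transport in liver, by 1.18 in normal and 0.85 in abnormal fish.

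**Figure D2:**
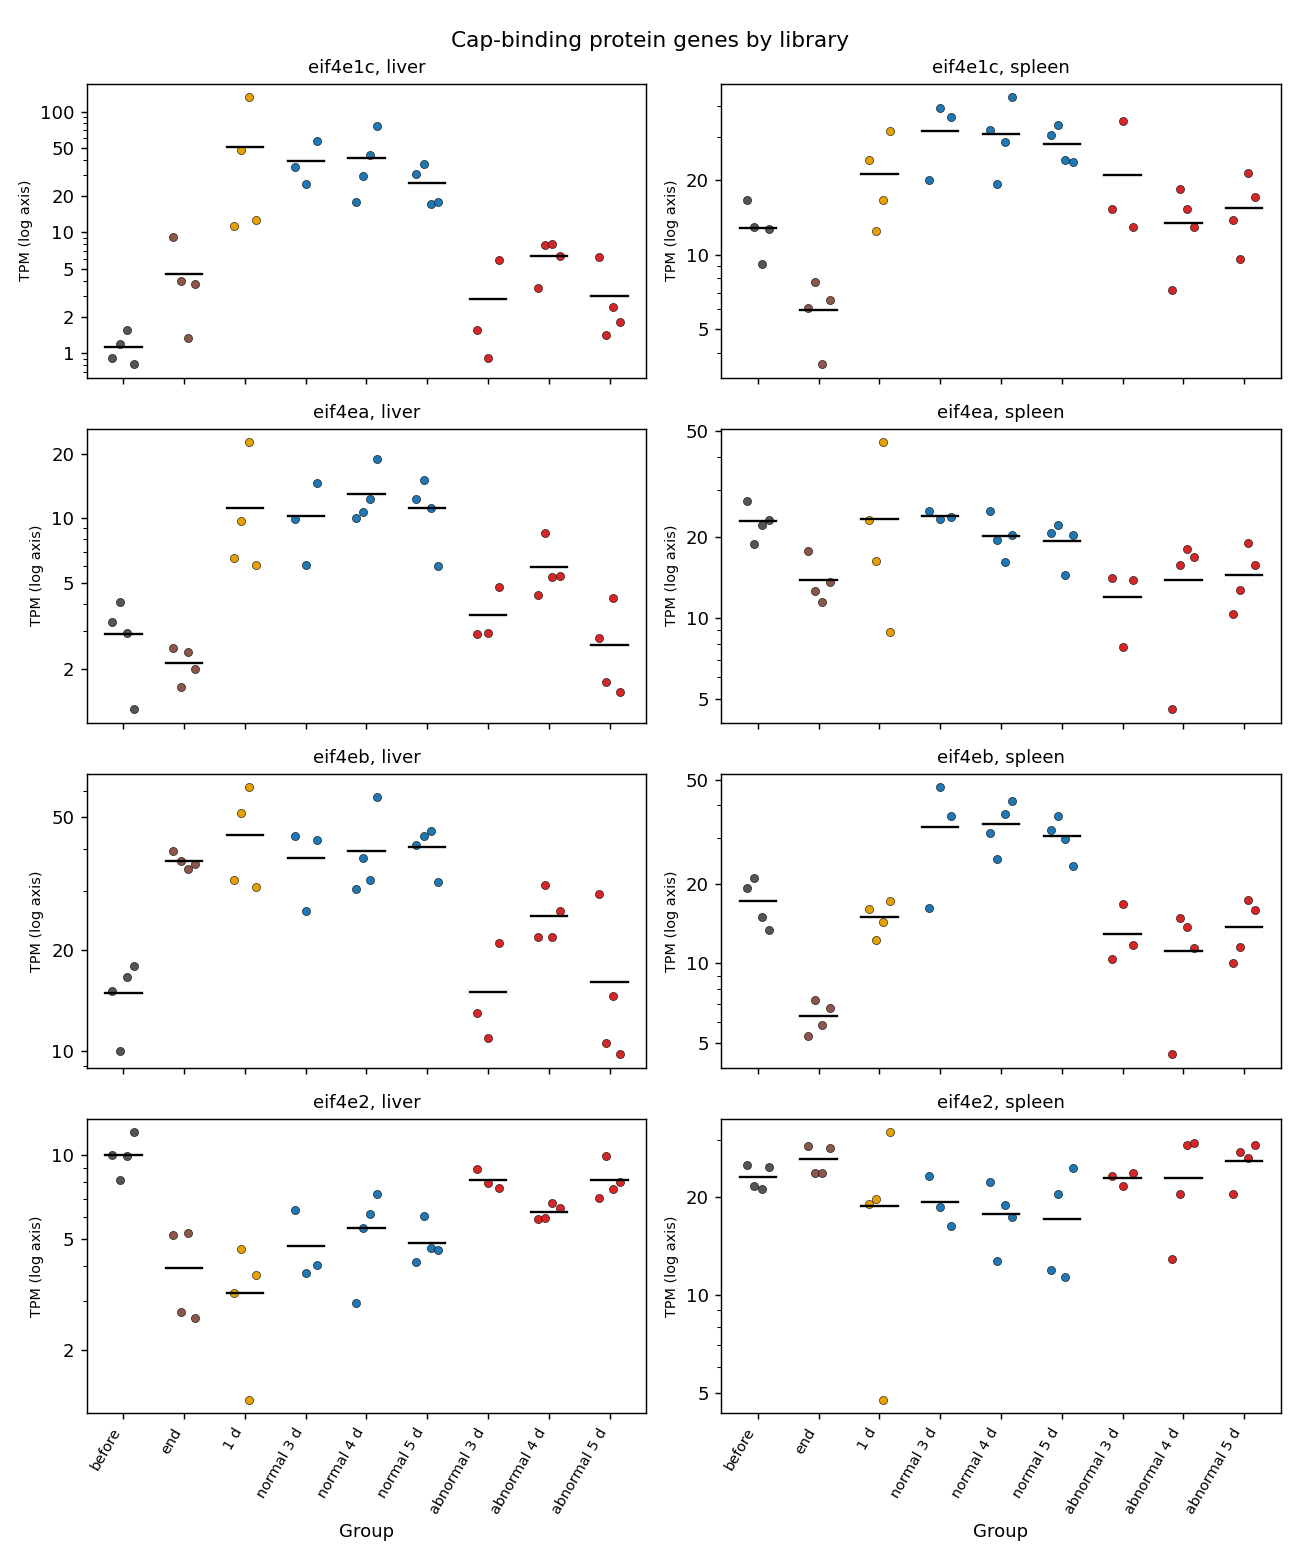
TPM of 4 cap-binding protein genes on a log axis in each library (points) of the 9 groups of liver (left) and spleen (right), with lines at group means. eif4e1c in liver runs from 0.81 to 1.56 TPM before transport to 11.4 to 132 TPM after 1 day, and eif4eb at the end of transport lies above the earlier livers and below the earlier spleens.

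The eIF4G scaffold and the eIF4A helicase complete the cap complex. The 4E-binding proteins, which can keep eIF4E from the scaffold, are given after them. eif4g1a, a scaffold gene, was 11.9 to 40.5 TPM (median 23.9) in normal livers and 6.01 to 16.0 TPM (median 10.03) in abnormal livers (-1.20 ± 0.27 SE, adjusted p = 0.000427). In spleen the 11 normal libraries held 19.9 to 43.0 TPM (median 29.0) and the 11 abnormal libraries 4.99 to 18.6 TPM (median 13.1), without overlap (-1.15 as deposited and -0.53 after rescaling). Against fish before transport its values turned on single libraries. The livers before transport were 8.07, 6.89, 8.18 and 47.8 TPM, and leaving out fish 4 moved the day 1 difference from 1.06, not called, to 1.69, called (limma adjusted p = 0.00213). The day 1 spleens were 20.9, 16.4, 85.1 and 167 TPM. Their difference of 1.44 was called, and without fish 3 and 4, left out after their values were seen, it was 0.13 and not called. It was also lost without spleen fish 3 before transport, day 1 fish 3 or day 1 fish 4 alone (limma adjusted p from 0.0599 to 0.120).

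The helicase genes separated by label and tissue. eif4a1a was 325 to 489 TPM (median 374) in normal spleens and 61.5 to 205 TPM (median 144) in abnormal spleens, with no overlap, and it was lower in abnormal fish under both scalings (-1.45 and -0.79). In liver it was 164 to 259.6 TPM (median 195) and 200.1 to 249 TPM (median 218), and the difference of 0.13 was not called. eif4a2, its paralogue, was 167, 171, 181 and 242 TPM in liver before transport, 33.8 to 125 TPM (median 60.7) in normal and 70.8 to 178 TPM (median 155) in abnormal livers. Normal livers lay below all livers before transport (-1.58 ± 0.25 SE, adjusted p = 9.11e-06), and abnormal livers were higher than normal ones (1.17 ± 0.19 SE, adjusted p = 6.05e-06). In spleen eif4a2 fell after 1 day, from 183, 154, 168 and 187 TPM to 72.5, 74.2, 34.8 and 81.3 TPM, without overlap (-1.45 ± 0.26 SE, adjusted p = 0.000446). eif4a3, the helicase of the exon junction complex, was 28.0 to 40.5 TPM (median 36.5) in normal and 42.7 to 116 TPM (median 92.5) in abnormal livers, without overlap (1.26 ± 0.12 SE, adjusted p = 5.52e-10), while in spleen its call between labels was -0.31 as deposited and turned to 0.35 after rescaling.

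eif4ebp2 encodes a protein that, when unphosphorylated, holds eIF4E away from the scaffold. In liver it was 37.1, 42.2, 54.0 and 75.5 TPM before transport and 28.6, 29.7, 18.7 and 32.5 TPM after 1 day. Every day 1 library was lower (-0.88 ± 0.23 SE, adjusted p = 0.00663), although without liver fish 4 before transport and liver fish 3 of day 1 together the difference was -0.53 and not called (limma adjusted p = 0.119). Normal livers held 18.2 to 35.5 TPM (median 21.4) and abnormal livers 32.2 to 45.2 TPM (median 37.2), with abnormal livers higher (0.59 ± 0.14 SE, adjusted p = 0.000909). eif4enif1, a transporter and binding protein of eIF4E, was called in none of the 10 comparisons of the 2 tissues by limma as deposited. After rescaling it was called higher in abnormal than in normal spleens.

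The eIF2 subunits and their exchange factor did not move as units. Of the genes of the 3 subunits of eIF2, which carries the initiator tRNA, eif2s1b (alpha) was higher in abnormal than in normal livers (0.68 ± 0.13 SE, adjusted p = 0.00011), eif2s2 (beta) was lower (-0.82 ± 0.21 SE, adjusted p = 0.00176), and eif2s3 (gamma) was not called (0.26, limma adjusted p = 0.115). In spleen all 3 were called lower in abnormal fish as deposited, where 54.2% of all genes were, and eif2s2 alone held after rescaling (-0.32). After 1 day in spleen, eif2s3 fell from 238, 155, 177 and 224 TPM to 106, 115, 60.4 and 151 TPM (-0.92 ± 0.24 SE, adjusted p = 0.00754). eif2s1b went from 129.5, 109, 126 and 129 TPM to 87.7, 66.7, 42.5 and 91.0 TPM (-0.82), a call lost without day 1 fish 3 (-0.59, limma adjusted p = 0.0625).

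The 5 subunits of eIF2B split in liver. eif2b2 (beta) was 36.3, 35.2, 42.6 and 50.3 TPM before transport, 13.2 to 34.9 TPM (median 19.7) in normal livers and 32.8 to 126 TPM (median 90.0) in abnormal livers. All normal livers lay below the livers before transport, and the difference between labels was the largest on the higher side among the 58 genes (1.97 ± 0.15 SE, adjusted p = 1.11e-11). eif2b4 (delta) lay the other way round, at 6.51, 4.89, 5.97 and 9.83 TPM before transport, 8.87 to 25.4 TPM (median 17.6) in normal and 3.76 to 9.30 TPM (median 5.28) in abnormal livers (-1.37 ± 0.21 SE, adjusted p = 4.24e-06). eif2b1 (alpha) and eif2b3 (gamma) were also lower in abnormal livers, at -0.93 and -0.89, and eif2b5 (epsilon), the catalytic subunit, was not called (-0.19, limma adjusted p = 0.376). All of the 4 liver calls held after rescaling, where eif2b5 was called lower in abnormal livers as well. In spleen the 5 subunits were called lower in abnormal fish as deposited, where 54.2% of all genes were. Of the 5, eif2b3 and eif2b5 held after rescaling, at -0.57 and -0.20. The direction of eif2b2 and eif2b1 in spleen turned with the scaling, from -0.61 to 0.039 and from -0.37 to 0.25. The difference between labels was not the same in the 2 tissues for eif2b2 (2.58 ± 0.19 SE, adjusted p = 4.05e-17, liver minus spleen) or eif2b4 (-0.74 ± 0.26 SE, adjusted p = 0.0129).

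**Figure D3:**
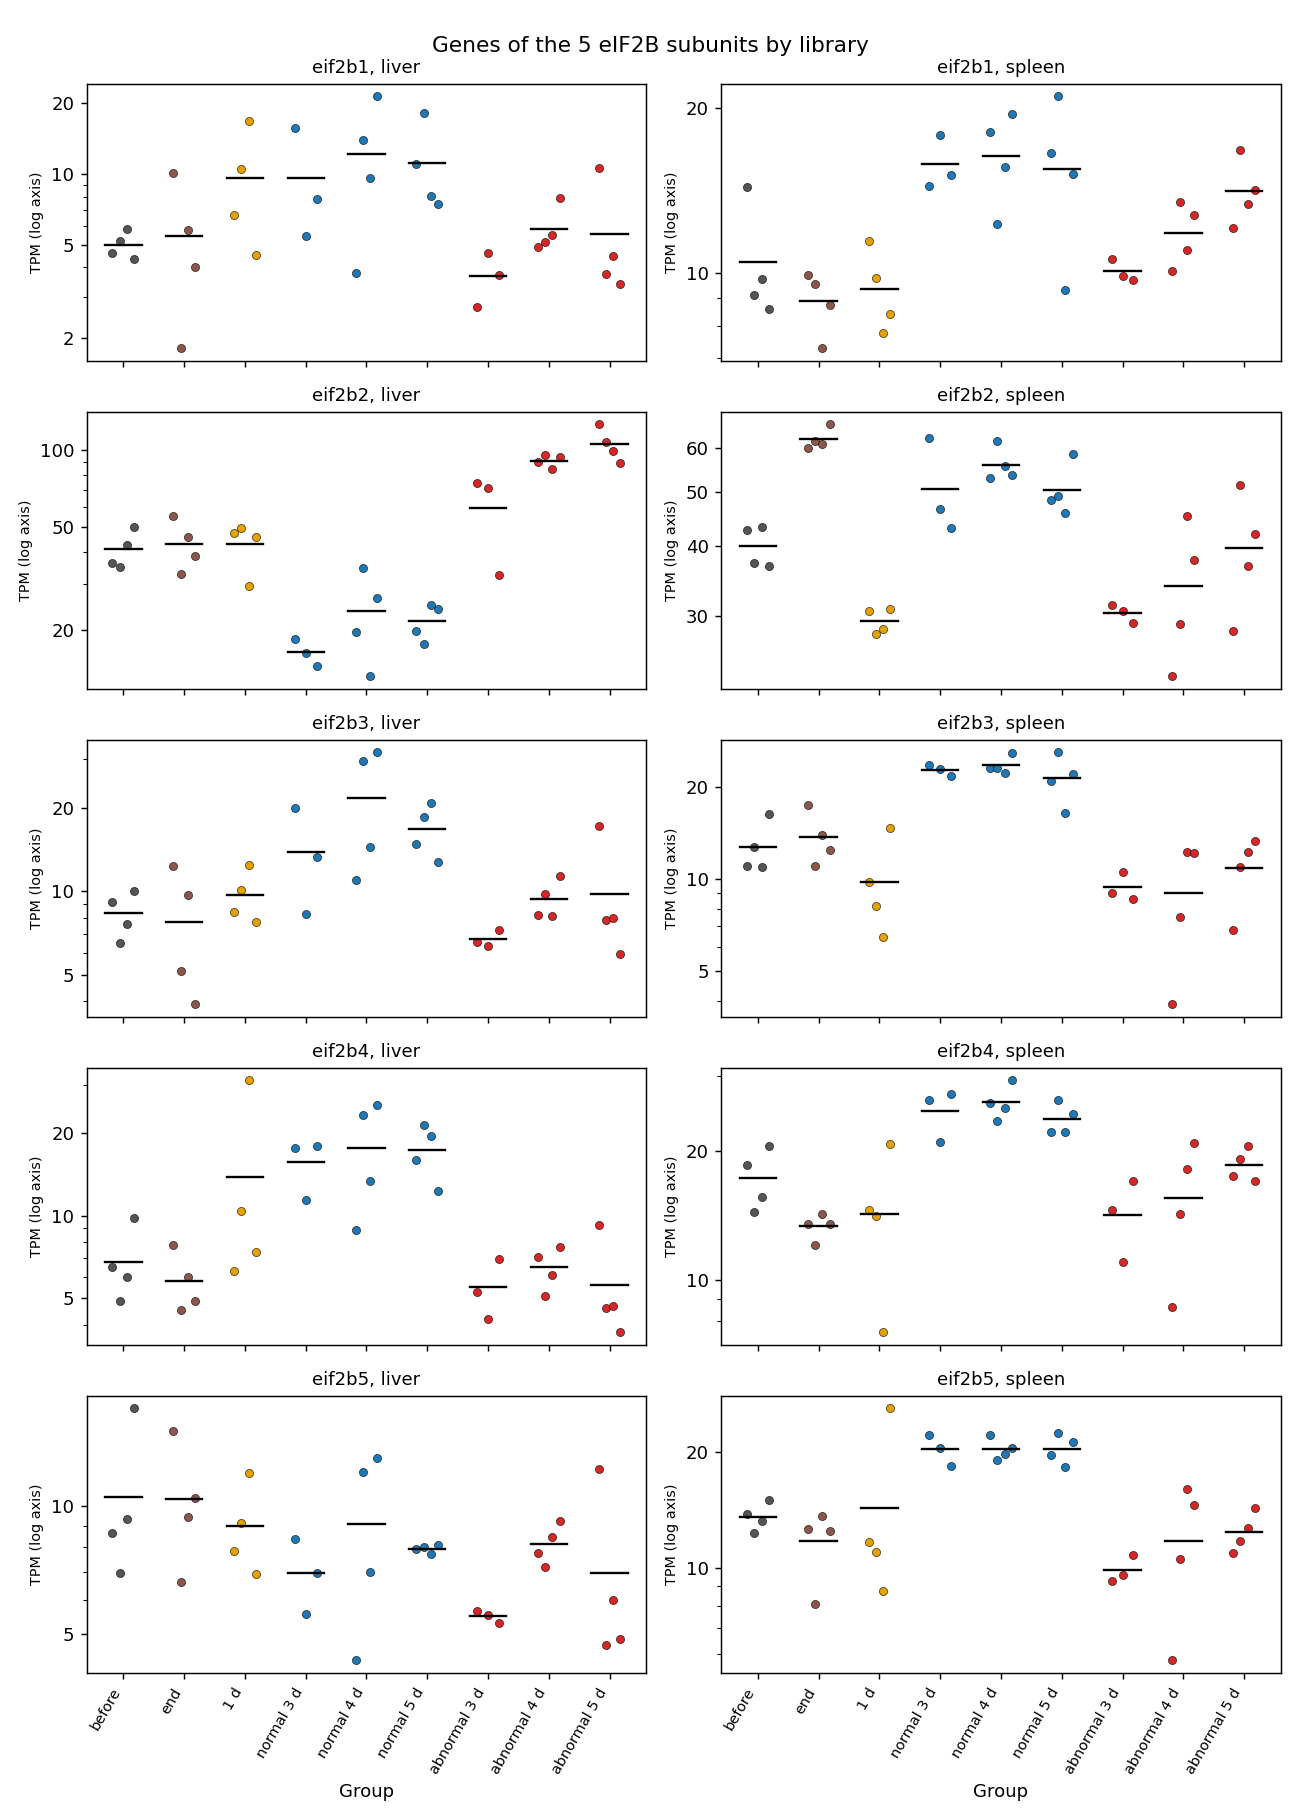
TPM of the genes of the 5 eIF2B subunits on a log axis in each library (points) of the 9 groups of liver (left) and spleen (right), with lines at group means. In liver eif2b2 is 32.8 to 126 TPM in abnormal and 13.2 to 34.9 TPM in normal fish, while eif2b4 is 3.76 to 9.30 TPM in abnormal and 8.87 to 25.4 TPM in normal fish.

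Kinases of eIF2 sense different stresses. eif2ak1 encodes the haem-regulated kinase, best known from red cell precursors of mammals. It was 14.4, 16.1, 14.3 and 16.6 TPM in spleen before transport and 29.2, 25.6, 26.5 and 97.2 TPM after 1 day, with all 4 day 1 spleens higher (1.23 ± 0.30 SE, adjusted p = 0.00486). Normal spleens held 11.2 to 25.9 TPM (median 19.8) and abnormal spleens 23.3 to 71.0 TPM (median 37.2), with a small overlap. As deposited it was the only member called higher in abnormal spleens (1.02 ± 0.18 SE, adjusted p = 2.22e-05). After rescaling it was higher by 1.66, and 9 members were called higher there, with eif2ak4, given below, among them. The red cell markers were higher in the same spleens, as given above, and their part in the rise of eif2ak1 was not tested. eif2ak3, the kinase of the endoplasmic reticulum, was 8.43, 6.08, 10.8 and 42.6 TPM in liver before transport and 2.29 to 8.63 TPM (median 5.60) in normal livers. Its difference of -1.12 rested on fish 4 before transport, without which it was -0.56 and not called (limma adjusted p = 0.108). Abnormal livers held 5.45 to 15.4 TPM (median 8.96), called higher than normal livers under both scalings, with overlap. In spleen eif2ak3 was called lower in abnormal fish as deposited and not called after rescaling. eif2ak4, which senses uncharged tRNA, was 2.03, 2.13, 3.85 and 16.6 TPM in liver before transport and 1.56, 2.34, 1.35 and 1.75 TPM after 1 day. Its call of -0.97 was lost without the same fish 4 (-0.39, limma adjusted p = 0.113) and without day 1 fish 3 (-0.90, limma adjusted p = 0.0790).

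The eIF3 complex bridges the small ribosomal subunit and the cap complex. Of the 12 genes here named eif3, 9 were called higher and 2 lower in abnormal than in normal livers, where 29.1% and 21.3% of all genes were. Their median difference was 0.75, and the median of all genes was 0.09. eif3f, a core subunit, was 420.3, 352, 407 and 302 TPM before transport, 140.1 to 240.3 TPM (median 207) in normal livers and 357 to 785 TPM (median 723) in abnormal livers. The labels did not overlap (1.74 ± 0.11 SE, adjusted p = 2.18e-13). eif3s10, the older name of the largest subunit eIF3a, was 41.5 to 67.6 TPM (median 55.2) in normal and 60.5 to 287 TPM (median 218) in abnormal livers (1.81 ± 0.24 SE, adjusted p = 2.67e-07), with a small overlap. eif3ea was 125 to 241 TPM (median 158) and 250.5 to 424 TPM (median 378), without overlap (1.15 ± 0.10 SE, adjusted p = 2.97e-10).

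The 2 lower eIF3 genes were eif3jb and eif3eb. eif3jb encodes the loosely attached j subunit. It was 7.59, 10.3, 15.2 and 9.51 TPM in liver before transport and 20.8, 32.8, 86.7 and 26.4 TPM after 1 day, with every day 1 liver higher (1.69 ± 0.34 SE, adjusted p = 0.00097). Normal livers held 27.1 to 78.2 TPM (median 44.4) and abnormal livers 10.3 to 24.0 TPM (median 14.8), without overlap (-1.43 ± 0.21 SE, adjusted p = 1.42e-06). eif3eb, the low paralogue of eif3ea, was 0.75, 0.57, 0.83 and 1.09 TPM before transport, 1.19 to 7.93 TPM (median 4.00) in normal and 0.31 to 2.59 TPM (median 0.91) in abnormal livers (-1.13 ± 0.23 SE, adjusted p = 0.000139). The paralogues eif3ea and eif3eb thus differed between labels in opposite directions, and both directions held after rescaling.

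In spleen the eIF3 genes gave a different list. Between labels 10 of the 12 were called lower in abnormal fish as deposited, with a median of -0.78, where 54.2% of all genes were called lower and the median over them was -0.51. After rescaling the lower calls of eif3s10 (-0.55), eif3c (-0.50), eif3i (-0.31), eif3eb (-0.33) and eif3ba (-0.24) held. eif3s10 was 124 to 152 TPM (median 137) in normal and 27.9 to 93.1 TPM (median 61.7) in abnormal spleens, without overlap, the opposite order to liver, and the difference between tissues was 3.01 ± 0.32 SE, adjusted p = 1.43e-11. eif3f was 368 to 601 TPM (median 504) in normal and 355 to 709 TPM (median 511) in abnormal spleens. It was not called as deposited (-0.0069, limma adjusted p = 0.98) or after rescaling (0.65, limma adjusted p = 0.0551). After 1 day 5 of the 12 were called lower and none higher by limma, where 15.9% and 4.17% of all genes were. Among them eif3k was at -1.39 and eif3ea at -1.22. Without day 1 spleens 3 and 4 together, these were -0.55 and -0.91 and not called (limma adjusted p = 0.0535 and 0.0546). At the end of transport eif3jb fell in spleen from 51.2, 54.6, 47.0 and 46.9 TPM to 26.4, 27.0, 23.6 and 23.5 TPM, without overlap (-0.96 ± 0.24 SE, adjusted p = 0.00749).

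Among factors of scanning and subunit joining, eif1 and eif1axb moved early. In liver eif1 rose from 435, 397, 504 and 465 TPM to 841, 796, 886 and 939.5 TPM at the end of transport (0.94 ± 0.15 SE, adjusted p = 0.000194), and day 1 livers held 682, 831, 709.6 and 558 TPM (0.62 ± 0.15 SE, adjusted p = 0.0046). Every liver of either group was above every liver before transport. In spleen eif1 was 965, 848, 932 and 864 TPM before transport and 651, 603, 7617 and 446 TPM after 1 day. Fish 3 of day 1 was far above every other spleen and the other 3 were below every spleen before transport. The difference was 0.25 with all libraries, not called, and -0.69 without that fish, called lower (limma adjusted p = 0.00793).

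eif1axb, a gene for eIF1A, which works beside eIF1, rose in liver from 22.4, 17.9, 23.2 and 26.5 TPM before transport to 56.9, 91.0, 175 and 55.4 TPM after 1 day (1.87 ± 0.35 SE, adjusted p = 0.000501). At the end of transport the livers held 48.5, 58.3, 42.4 and 45.3 TPM. None overlapped with the livers before transport, and the call (1.08 ± 0.35 SE, adjusted p = 0.0418) was lost on leaving out any 1 of the 8 libraries except fish 1 before transport (limma adjusted p from 0.0546 to 0.125). In spleen eif1axb fell at the end of transport, from 68.0, 62.7, 60.1 and 64.1 TPM to 31.8, 26.1, 27.9 and 28.7 TPM (-1.13 ± 0.25 SE, adjusted p = 0.00334). The 2 tissues differed in this (2.21 ± 0.43 SE, adjusted p = 0.000556, liver minus spleen). Between labels eif1axb was lower in abnormal fish in liver (-0.89) and in spleen (-1.08), also after rescaling (-1.04 and -0.42).

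Of the other joining factors, eif2d, known from delivery of the initiator tRNA independent of GTP, was 5.14 to 8.44 TPM (median 7.23) in normal and 1.34 to 4.30 TPM (median 2.88) in abnormal livers, without overlap (-1.10 ± 0.16 SE, adjusted p = 1.38e-06). In spleen it fell at the end of transport from 10.3, 7.55, 9.44 and 10.6 TPM to 4.34, 3.06, 3.34 and 4.27 TPM (-1.14 ± 0.25 SE, adjusted p = 0.003). eif5b, which joins the subunits, and eif6, which keeps the large subunit free, were lower in abnormal livers, at -0.60 and -0.44, the first not called without normal liver 1 of day 3 (-0.54, limma adjusted p = 0.0530). In spleen eif6 was 67.0 to 90.8 TPM (median 76.4) in normal and 16.7 to 44.7 TPM (median 36.9) in abnormal fish, without overlap (-1.12 as deposited, -0.47 after rescaling). eif5a, whose product helps ribosomes through difficult peptide bonds, was higher in abnormal livers (0.65 ± 0.10 SE, adjusted p = 2.67e-06). In spleen it was lower as deposited (-0.81) and not called after rescaling (-0.15).

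The elongation genes split by paralogue in liver as well. eef1da was 819, 783, 778 and 568 TPM before transport, 297 to 503 TPM (median 381) in normal livers and 565 to 1079 TPM (median 945) in abnormal livers, with no overlap between labels (1.21 ± 0.10 SE, adjusted p = 5.78e-11). eef1db, its lower paralogue, was 28.8 to 74.4 TPM (median 43.4) in normal and 19.9 to 44.5 TPM (median 27.2) in abnormal livers (-0.56 ± 0.15 SE, adjusted p = 0.0029). The difference between labels was higher for eef1da and lower for eef1db under both scalings. eef1g and eef1b2, the other subunits of the exchange complex, were higher in abnormal livers as deposited, by 0.39 and 0.35, and not called after rescaling (limma adjusted p = 0.137 and 0.188).

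In spleen the exchange complex was lower after 1 day. eef1da went from 760.3, 682, 786 and 777 TPM to 451, 412, 251 and 217 TPM (-1.24 ± 0.23 SE, adjusted p = 0.000654), and eef1b2 from 528, 447, 519 and 633 TPM to 287, 235, 104 and 337 TPM (-1.25 ± 0.25 SE, adjusted p = 0.00125). eef1g went from 1170.2, 1003, 1113 and 1291 TPM to 685, 662, 328 and 783 TPM (-0.96 ± 0.27 SE, adjusted p = 0.0126). None of the 3 overlapped between groups. The call of eef1g was lost without day 1 fish 3 (-0.69, limma adjusted p = 0.0697), and those of eef1da and eef1b2 held on leaving out any 1 library. With only the groups compared, 0 members were called in spleen at day 1 by limma, these genes included. Between labels eef1db was 100.3 to 140.3 TPM (median 121) in normal and 21.2 to 64.2 TPM (median 51.9) in abnormal spleens, without overlap, and lower in abnormal fish under both scalings (-1.38 and -0.72). The direction of eef1da, eef1g and eef1b2 between labels in spleen turned with the scaling, from -0.079, -0.55 and -0.35 to 0.58, 0.11 and 0.31.

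eef2k rose at the end of transport in both tissues, and eef2b, the only row named for its substrate eEF2, in spleen. eef2b averaged 16.8 TPM in liver and 28.1 TPM in spleen. Whether it holds most of the eEF2 transcripts is not known here. In liver eef2k was 27.9, 31.8, 37.6 and 81.8 TPM before transport, 90.5, 94.8, 111 and 107 TPM at the end and 14.1, 9.42, 2.11 and 10.6 TPM after 1 day. The 4 livers at the end were the highest and the 4 livers of day 1 the lowest of these 12, with differences of 1.28 ± 0.42 SE, adjusted p = 0.0414 and -2.26 ± 0.42 SE, adjusted p = 0.000433. The first of these was lost on leaving out 1 library, either of fish 1, 2 and 3 before transport or of fish 2, 3 and 4 at the end (limma adjusted p from 0.0635 to 0.101). In spleen eef2k rose from 52.5, 37.2, 56.8 and 60.2 TPM to 246, 186, 316 and 165 TPM, without overlap (2.10 ± 0.44 SE, adjusted p = 0.00203), the largest rise of any member at that time. It was 21.8, 25.6, 9.19 and 50.8 TPM after 1 day (-1.12, not called with all libraries, limma adjusted p = 0.0701) and called without fish 4 (-1.50, limma adjusted p = 0.0128). In abnormal spleens it was 8.32 to 36.7 TPM (median 23.4), below before transport without overlap (-1.20 ± 0.37 SE, adjusted p = 0.0143), a call lost without spleen fish 4 before transport (limma adjusted p = 0.0564).

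eef2b was 3.77, 3.81, 7.29 and 16.9 TPM in liver before transport and 21.0, 23.7, 18.8 and 20.8 TPM after 1 day (1.53 ± 0.36 SE, adjusted p = 0.00288), with every day 1 liver higher. At the end of transport the livers held 26.2, 10.5, 14.9 and 11.3 TPM. That difference of 1.04 was not called (limma adjusted p = 0.0524), and without liver fish 4 before transport it was 1.45 and called (limma adjusted p = 0.0064). Abnormal livers held 9.80 to 38.2 TPM (median 23.3) and normal livers 7.48 to 24.9 TPM (median 11.3) (0.74 ± 0.22 SE, adjusted p = 0.00554). In spleen it rose from 18.7, 15.7, 19.4 and 23.7 TPM to 52.5, 34.4, 54.0 and 34.9 TPM at the end of transport (1.13 ± 0.34 SE, adjusted p = 0.0287), without overlap. That call was lost without fish 1, 2 or 3 before transport or fish 1 or 3 at the end (limma adjusted p from 0.0571 to 0.0886). Of the methyltransferase genes, eef1akmt1, for eEF1A, was higher in livers of day 1 (1.01) and of normal fish (1.36) than before transport. It lay near the floor, at 0.37 to 0.91 TPM before transport, 1.40 to 2.88 TPM at day 1 and 1.41 to 5.54 TPM in normal livers. As deposited, eef1akmt2 and eef2kmt were called in none of the 10 comparisons within a tissue by limma.

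**Figure D4:**
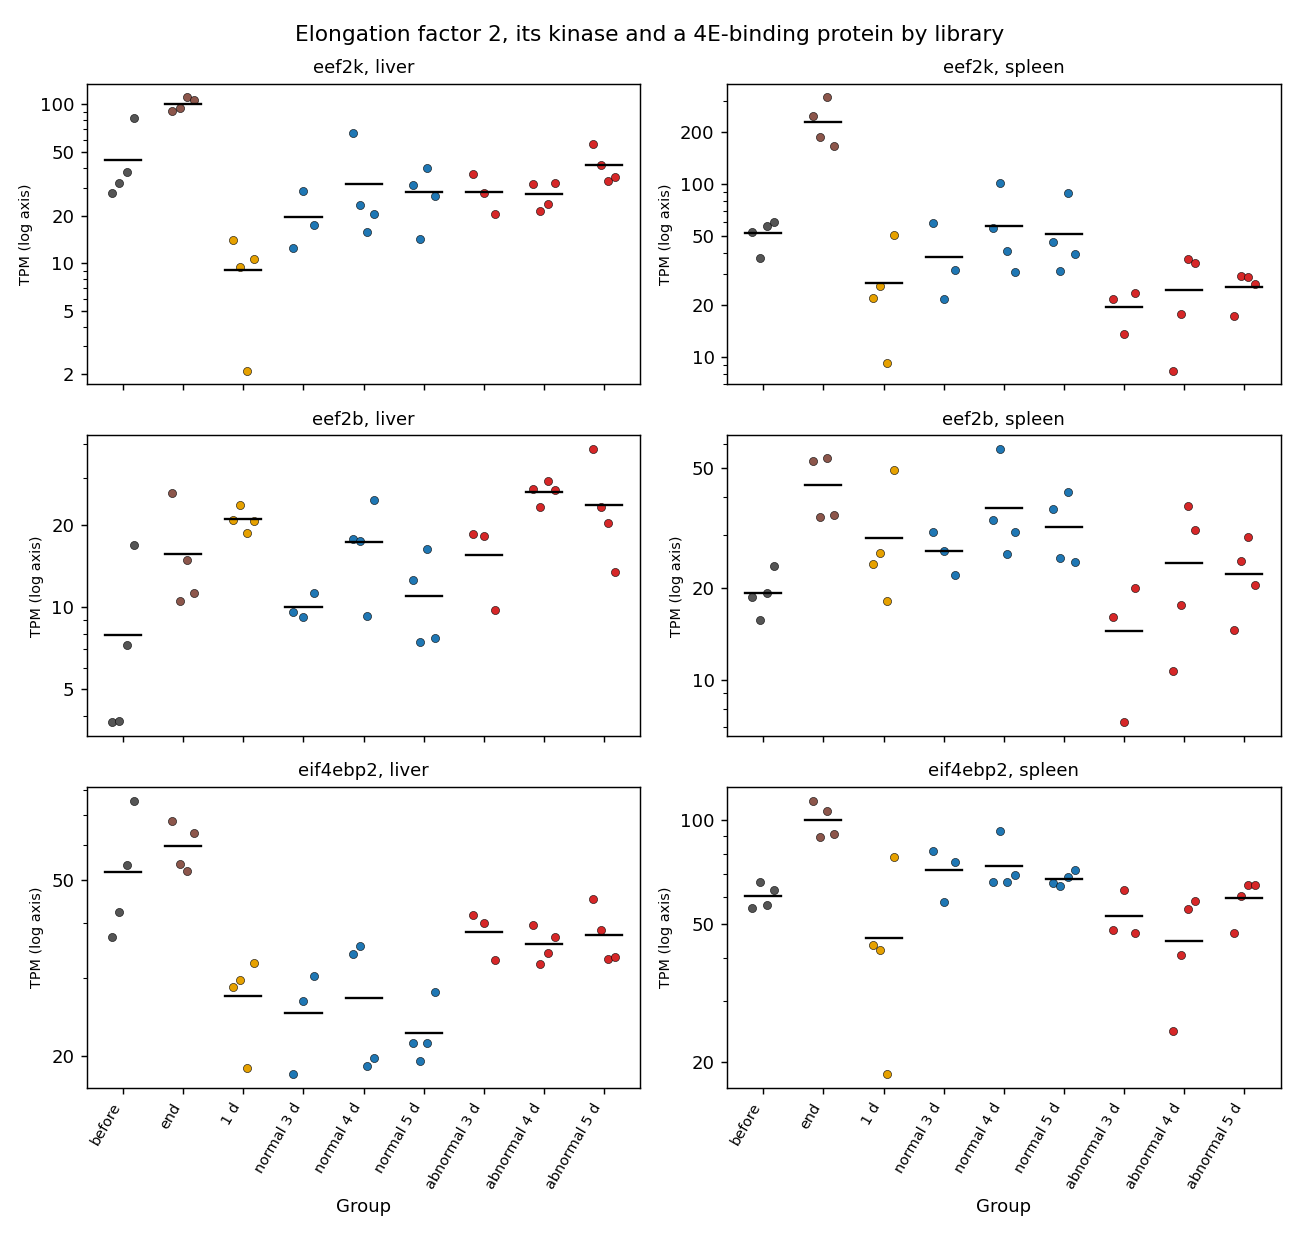
TPM of eef2k, eef2b and eif4ebp2 on a log axis in each library (points) of the 9 groups of liver (left) and spleen (right), with lines at group means. eef2k is at its highest at the end of transport in both tissues, 90.5 to 111 TPM in liver and 165 to 316 TPM in spleen.

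The difference between labels was then compared across tissues. Of the 58 members, 18 were called higher in abnormal livers and lower in abnormal spleens, 17 lower in both and 1, eif2ak1, higher in both. Of the 14762 genes tested in both tissues these were 10.1%, 17.8% and 3.79%. After rescaling 3 members were higher in liver and lower in spleen, 9 lower in both, 5 higher in both and 2 lower in liver and higher in spleen, where the shares of all genes were 4.51%, 14.2%, 12.7% and 3.5%. Under both scalings eif3c, eif3i and eif3s10 were higher in liver and lower in spleen, and eef1db, eif1axb, eif2b3, eif2s2, eif3eb, eif4eb, eif4g1a and eif6 were lower in both. The liver call of eif2ak1 (0.36) was lost on leaving out any of 12 of the 22 labelled livers, with limma adjusted p from 0.0530 to 0.0859. In 1 fit of both tissues, 39 differed in the size of the label difference, 34 higher and 5 lower in liver than in spleen, where 54.2% of all genes differed (47.4% higher and 6.74% lower). Rescaling called 35, with 20 higher and 15 lower, where 56.9% of all genes called were higher. Of the 39, 25 held after rescaling, 20 higher and 5 lower. The largest were eif3s10 (3.01 ± 0.32 SE, adjusted p = 1.43e-11), eif2b2 (2.58 ± 0.19 SE, adjusted p = 4.05e-17) and eif4a2 (1.86 ± 0.24 SE, adjusted p = 6.24e-09) on the higher side and eif4e1c (-2.03 ± 0.41 SE, adjusted p = 3.4e-05) on the lower side. After rescaling these were 2.35, 1.95, 1.20 and -2.85.

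**Figure D5:**
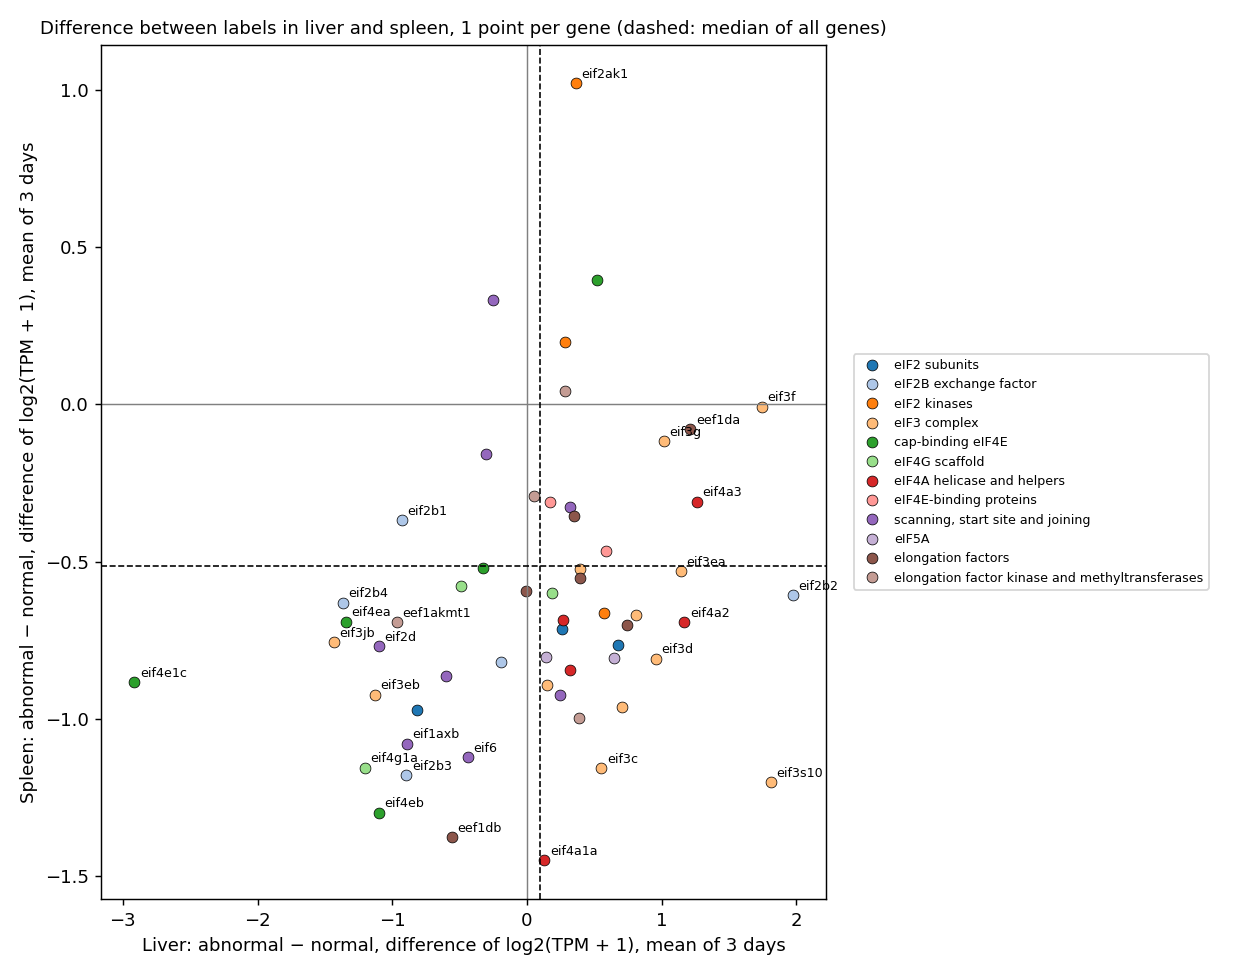
Difference between fish labelled abnormal and normal in log2(TPM + 1), mean of 3 days, in liver (horizontal) and spleen (vertical), with 1 point for each of the 58 genes coloured by role and dashed lines at the median of all genes. As deposited, 45 genes are called lower in spleen, of which 16 keep that call after rescaling, eif2ak1 lies at 1.02, and in liver the points run from eif4e1c at -2.91 to eif2b2 at 1.97.

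The response over time also differed between tissues. For the end of transport against before, 4 members differed between tissues, 3 higher and 1 lower in liver than in spleen, where 6.48% of all genes differed (2.06% higher and 4.43% lower). The count was 2 without liver fish 4 or spleen fish 2 before transport, or without liver fish 2, liver fish 4 or spleen fish 1 at the end. The 4 were eif4eb, eif1axb, eif4e1c (2.21 ± 0.67 SE, adjusted p = 0.0324) and eif4e2 (-1.37 ± 0.42 SE, adjusted p = 0.0336), and they held after rescaling. The call of eif4e1c was lost on leaving out any of 8 of the 16 libraries: liver fish 4 and spleen fish 1 and 2 before transport, and liver fish 1, 2 and 4 and spleen fish 1 and 3 at the end (limma adjusted p up to 0.0885). The call of eif4e2 was lost on leaving out any of 7: liver fish 4 and spleen fish 2 and 3 before transport, and liver fish 2 and 4 and spleen fish 1 and 4 at the end (limma adjusted p up to 0.0884). For 1 day of recovery, 20 differed, 18 higher and 2 lower in liver, where 17.5% of all genes differed (11.0% higher and 6.49% lower). eif4e1c differed by 3.31, eif3jb by 1.93 and eif2ak1 at -1.22, the last lost without liver fish 4 before transport (-0.95) or day 1 spleen fish 4 (-0.77). eif4ea differed by 1.70, a call lost without day 1 liver fish 3 (1.32, limma adjusted p = 0.0557).

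Before transport 35 members differed between the tissues, 34 of them lower in liver, where 78.8% of all genes differed (11.0% higher and 67.8% lower). All genes tested had a median of -1.12 here. After rescaling 35 were called, 31 higher and 4 lower in liver, where 43.5% of all genes called were higher. Of the calls as deposited, 5 held in direction while 7 were called in the opposite one. eif4e1c, eif4ea, eif3eb and eif3jb were lower in liver, at -2.69, -2.66, -2.22 and -2.17 as deposited and -1.55, -1.36, -1.22 and -0.81 after rescaling. eif2a, a factor that can carry initiator tRNA without eIF2, was higher in liver (0.73 and 2.05).

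Over all 9 groups 38 members varied in liver and 45 in spleen by a moderated F test, where 55.0% and 66.5% of all genes did. Other translation genes, taken from lists by role, were read from the same fits. Of 7 genes for release and recycling of ribosomes, 6 were lower in abnormal than in normal livers and 7 in spleen, with medians of -0.77 and -1.06, where 21.3% and 54.2% of all genes were called lower and their medians were 0.09 and -0.51. After rescaling 6 were lower in liver and 4 in spleen, with medians of -0.91 and -0.42. Against before transport, 6 of these 7 were higher in normal livers and 5 in normal spleens, where 16.9% and 21.5% of all genes were. After rescaling the counts were 6 and 4. Of 8 mitochondrial translation factors, 2 were higher and 5 lower in abnormal livers, and 1 was higher and 7 were lower in abnormal spleens. Their medians were -0.43 and -0.74. Of all genes, 29.1% were called higher and 21.3% lower in abnormal livers, and 7.75% higher and 54.2% lower in abnormal spleens. After rescaling 1 of the 8 factors was higher and 6 lower in liver, and 1 higher and 3 lower in spleen. The 9 regulators included rptor, a partner of the mTOR kinase, and mknk1, a kinase of eIF4E. Of the 9, 2 were higher and 4 lower in abnormal livers, and 6 were lower in abnormal spleens, beside the same shares of all genes. After rescaling 2 were higher and 5 lower in liver, and 1 higher and 5 lower in spleen.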

How the data were processed

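RNA of 34 liver and 34 spleen samples of individual fish was sequenced, and the submitters deposited 1 table of TPM per gene, which is the unit used here. Per the submitters' processing notes, the tools were fastp 0.23.2 for the reads and Salmon 1.10.0 for abundance. Which genome build or annotation served is not given in the sources used here. TPM keeps no read depth, so depth and counting error are unknown. TPM summed to 995833 to 999254 per library, and 10814 to 14472 genes in liver and 13320 to 16846 in spleen reached 1 TPM.

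A gene was tested in a tissue where 3 or more libraries reached 1 TPM (15430 in liver, 17998 in spleen and 18666 over both). log2(TPM + 1) was fitted with limma 3.58.1 in R 4.3.3, with 1 mean per group and a variance trend, over all 9 groups of a tissue or all 18 groups. Benjamini-Hochberg adjustment covered all genes tested, and every adjusted p in the text comes from limma with the threshold 0.05. P-values measure only the spread between these samples. The fit was tested on simulated data in which each gene had the same spread in every group. That test therefore does not cover groups with a wider spread, such as the spleens of day 1. Alternatives were a pseudocount of 0.1, no filter, median-of-ratios rescaling, only the groups compared, a replicate block, leaving out each library, leaving out libraries that stand apart and, in spleen, leaving out genes at least 10 times higher in liver.

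Genes were named by rule: up to 6 called genes with the largest difference in each direction of each comparison, with at least 5 TPM in the higher group, the 3 most abundant of each family, and fixed families (cap-binding proteins, 4E-binding proteins, eIF4A, eIF4G, eIF2, its kinases, eIF5A, eEF2 and its kinase). Genes named outside it were chosen after their values were seen. The members and lists were chosen with earlier results of these data known. Figures were drawn with matplotlib 3.10.9.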

Additional observations from a re-analysis of the deposited data

Results flagged for a closer look

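Within the 322 groups of 4 libraries searched, 1 library stood far from the other 3 in 17 cases, and chance alone gives about 1 in 20 groups. In abnormal spleen fish 1 on day 4, eif4ea was 4.56 TPM against 15.8 to 18.1 TPM in the others. In liver fish 4 before transport, eif4a1a was 346 TPM against 145 to 154 TPM in the others, eif4g1a was 47.8 TPM against 6.89 to 8.18 TPM in the others, eif3s10 was 454 TPM against 64.8 to 88.7 TPM in the others, eif2ak1 was 14.1 TPM against 5.19 to 6.69 TPM in the others, eif2ak3 was 42.6 TPM against 6.08 to 10.8 TPM in the others and eef1da was 568 TPM against 778 to 819 TPM in the others. In spleen fish 4 at the end of transport, eif4g1a was 8.83 TPM against 5.39 to 5.67 TPM in the others. In normal spleen fish 2 on day 4, eif4ebp2 was 93.02 TPM against 66.2 to 69.5 TPM in the others. In abnormal spleen fish 1 on day 5, eif3s10 was 45.03 TPM against 74.5 to 80.2 TPM in the others. In liver fish 3 at day 1, eif2b4 was 31.2 TPM against 6.27 to 10.4 TPM in the others. In abnormal liver fish 1 on day 5, eif2b4 was 9.30 TPM against 3.76 to 4.67 TPM in the others and eif2ak1 was 12.6 TPM against 6.92 to 7.09 TPM in the others. In spleen fish 4 at day 1, eif2ak1 was 97.2 TPM against 25.6 to 29.2 TPM in the others and eif2ak3 was 36.9 TPM against 7.12 to 11.1 TPM in the others. In spleen fish 3 at day 1, eif1 was 7617 TPM against 446 to 651 TPM in the others. In normal liver fish 1 on day 4, eef2k was 66.3 TPM against 15.8 to 23.2 TPM in the others.

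In a fit of both tissues, the difference in liver minus that in spleen passed the threshold for 26 tests of named genes, given here on the log2 scale with limma. For the end of transport against before these were eif4eb (2.59), eif1axb (2.21), eif4e2 (-1.37) and eif4e1c (2.21). For day 1 against before they were eef1da (1.24), eif4eb (1.65), eif1axb (1.80), eif3jb (1.93), eif4ea (1.70), eif2ak1 (-1.22) and eif4e1c (3.31). Of these, eif4ea was lost without day 1 liver fish 3, and eif2ak1 without liver fish 4 before transport or day 1 spleen fish 4. For abnormal against normal fish they were eef1g (0.95), eef1da (1.29), eif4a1a (1.58), eif3f (1.75), eif4ebp2 (1.06), eif4a2 (1.86), eif2b2 (2.58), eif2b4 (-0.74), eef2b (1.44), eif2ak3 (1.23), eif3jb (-0.68), eif3s10 (3.01), eif2ak1 (-0.66), eif4e1c (-2.03) and eef2k (1.38). Of the last, eef1g and eef2k were not called after rescaling.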

How the results depend on the processing

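Of the counts of called genes, those for the labels in liver kept to within 1.5 times under every alternative tried. After median-of-ratios rescaling the count was 12 in liver and 18 in spleen at the end of transport, 28 in each tissue at day 1, 19 for abnormal livers against before transport, 25 between labels in spleen and 8 for the tissue difference at the end of transport. With only the groups compared it was 1 in liver and 21 in spleen at the end of transport, 2 in liver and 0 in spleen at day 1 (limma, where 2 higher and 11 lower genes had an unadjusted p under 0.05), 36 for normal spleens against before transport and 1 for the tissue difference at day 1. Without liver fish 4 before transport and liver fish 3 of day 1, abnormal livers against before transport gave 15. Without day 1 spleens 3 and 4, an alternative chosen after seeing the data, spleen gave 8 at day 1. The share of all genes called under each alternative is not given, here or for the counts below. Whether these shifts concern the members or all genes cannot be told from the counts.

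Leaving out each library in turn gave 3 to 7 genes in liver and 6 to 9 in spleen at the end of transport, 10 to 22 in spleen at day 1, 8 to 15 for abnormal livers, 11 to 21 for normal spleens and 5 to 17 for abnormal spleens against before transport, and 2 to 5 for the tissue difference at the end of transport. Of the differences of named genes, 327 were followed through the alternatives, which leaves others out. Among these 327, signs turned after rescaling for eif3jb in abnormal spleens against before transport (to 0.41). Between labels in spleen they turned for eif4ebp2 (0.19), eif4a3 (0.35), eif2b2 (0.039), eef1da (0.58), eif3k (0.14), eef1b2 (0.31), eif3ea (0.13), eef1g (0.11) and eif4g2b (0.073). Between liver and spleen before transport they turned for eif1 (0.41), eif4e2 (0.19), eif2b4 (0.033), eif3f (0.71) and eif2ak1 (0.35). Of the calls among all 58 genes, between labels in spleen 1 became a call in the opposite direction and 9 turned in sign and were no longer called, eif2b1 (0.25) and eef1e1 (0.021) among them. Between liver and spleen before transport 7 became opposite calls and 14 turned and were no longer called. The cause was not tested. eif1 in spleen at day 1 ranged from -0.69 (without fish 3) to 0.68 (without fish 4) on leaving out 1 library, and was -0.52 without both.

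With the replicate number as a block, the counts between labels were 39 in liver and 46 in spleen, and at day 1 15 and 16. In the fits of both tissues they were 35 between tissues before transport, 4 for the end of transport, 20 for day 1 and 40 for the labels. Same-numbered libraries of different groups had a mean correlation of deviations of -0.01 in liver and 0.009 in spleen, and the numbers were not taken to pair fish. Same-numbered liver and spleen of 1 condition had a mean correlation of 0.134 over 34 pairs, 23 of them over 0.1, and 23 correlated best with their own number. The labels do not state whether such pairs came from the same fish. Liver and spleen were fitted as unpaired, so standard errors and p-values of the tests between tissues take no account of possible pairing. The missing depth limits what can be said of genes near 1 TPM.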
